A study of Homo sapiens with 4 samples.

Results

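The genes described here are the core of the TGF-beta pathway: the ligands TGFB1, TGFB2 and TGFB3, the receptors TGFBR1 and TGFBR2, the signal carriers SMAD2, SMAD3 and SMAD4, and the inhibitor SMAD7. They were picked by symbol through their Ensembl IDs, and all 9 were found among the 20263 gene IDs of the count table. Messenger RNA was sequenced from MDA-MB-231, a human breast cancer line of the triple-negative, mesenchymal kind, after 24 h with Neoribocic or with the solvent DMSO, with 2 libraries in each group. Both groups were grown with 10% fetal bovine serum, a source of TGF-beta itself. The treatment protocol in the labels calls the compound Rib_CA, which was read as the same agent, and the dose used was not given in the sources used here. All libraries come from 1 cell line, and no label says whether the 2 libraries of a group were separate cultures. The p-values therefore measure the spread between these libraries, which may be technical.

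TGF-beta ligands are secreted in a latent form, and once released they bind the type II receptor TGFBR2, which phosphorylates the type I receptor TGFBR1. TGFBR1 then phosphorylates SMAD2 and SMAD3, which join SMAD4 and enter the nucleus to switch target genes, while SMAD7, itself a target gene, blocks the receptor and closes the loop. In early breast tumors the pathway restrains division, and in invasive lines such as MDA-MB-231 it is known for driving migration and matrix production.

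Library totals were 41572094 and 43014212 counts for Neoribocic replicates 1 and 2, and 34774542 and 37754168 counts for DMSO replicates 1 and 2. Mitochondrially encoded genes held 5.76% and 7.24% of counts in the Neoribocic libraries, against 8.68% and 21.7% in the DMSO libraries, so DMSO replicate 2 stood apart. With these genes left out, 6 of the 9 members were called, as with them. Across 13862 genes the log2 fold change had a Spearman correlation of -0.39 with transcript length and 0.45 with GC content, over genes that share the same 4 libraries. A fold change corrected for both properties is therefore given beside each member below. The markers of the line were high, their summed level being 4762 and 5060 CPM (the count per library size, scaled by TMM factors) in the Neoribocic libraries and 6754 and 7596 CPM in the DMSO libraries. Markers of stroma summed to at most 10.2 CPM and those of blood cells to at most 1.13 CPM, with COL1A2, DCN and CD3E at 0 counts throughout. The 7 markers of luminal or epithelial cells summed to 919 and 661 CPM in the Neoribocic libraries and to 495 and 611 CPM in the DMSO libraries. Nearly all of that was KRT19 and KRT8, since ESR1 reached at most 0.65 CPM and CDH1 0.14 CPM, and the part of these keratins in the results was not tested.

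The windows around the transcription starts of the ligand genes TGFB2 and TGFB1 are shown because these were the ligands with the largest and the smallest change in the comparison. Each runs from 250 bases before to 50 bases after the start, from RefSeq on GRCh38.p14, and is read 5′ to 3′ on the gene's own strand. TGFB2 has 1 window in the table, chr1:218345086-218345385 on the plus strand, and TGFB1 has 1, chr19:41353873-41354172 on the minus strand. Capitals mark the motifs searched on both strands: CRE (TGACGTCA), E-box (CACGTG), AP-1 (TGANTCA), the SMAD palindrome (GTCTAGAC), the short SMAD element (CAGAC), a TEAD site (GGAATG) and the GC box (GGGCGG).
TGFB2: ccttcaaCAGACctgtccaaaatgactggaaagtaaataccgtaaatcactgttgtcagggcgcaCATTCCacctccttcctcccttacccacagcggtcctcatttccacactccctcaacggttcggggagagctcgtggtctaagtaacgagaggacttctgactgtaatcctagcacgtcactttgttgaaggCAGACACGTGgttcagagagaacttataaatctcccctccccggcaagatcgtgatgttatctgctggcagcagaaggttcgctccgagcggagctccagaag
TGFB1: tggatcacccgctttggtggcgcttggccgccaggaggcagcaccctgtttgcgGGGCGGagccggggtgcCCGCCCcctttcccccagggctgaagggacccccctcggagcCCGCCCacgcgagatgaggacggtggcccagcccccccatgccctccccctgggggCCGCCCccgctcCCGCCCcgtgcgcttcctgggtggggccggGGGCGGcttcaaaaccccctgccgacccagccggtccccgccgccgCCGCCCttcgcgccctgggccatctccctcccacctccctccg

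The TGFB2 window was 51.7% G and C, with 1 E-box starting 49 bases before the start, 2 short SMAD elements, 1 of which shares bases with that E-box, and 1 TEAD site on the opposite strand. The TGFB1 window was 77.3% G and C and held 7 GC boxes and no other motif of the search. Of 34943 windows of the same length, 7.23% held the E-box, 14.0% the TEAD site, 45.3% the short SMAD element and 44.9% the GC box. These matches describe letters in 1 window of each gene and show neither binding nor use.

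The comparison of Neoribocic with DMSO asks how the compound changed the pathway's own genes. TGFB2, TGFBR1, TGFBR2, SMAD2, SMAD3 and SMAD4 fell, and TGFB1, TGFB3 and SMAD7 did not pass the test. The 6 of 9 that fell by edgeR's quasi-likelihood test, with a Benjamini-Hochberg adjusted p under 0.05 over all genes, stand beside 21.3% lower among the 13879 genes tested, where 40.4% were called in either direction. None of the 9 rose, where 19.1% of all genes did. All 9 passed the filter on low counts, and their median log2 fold change was -0.95, against 0.01 over all genes tested. After the correction for length and GC content these medians were -0.62 and -0.01. In 7 of the 9 genes both Neoribocic libraries lay below both DMSO libraries, as they did in 37.3% of all genes. They lay above in none of the 9 and in 37.8% of all genes, and the groups did not overlap in 75.1% of all genes. Values come from whole cultures, where fewer cells expressing a gene and less of its RNA per cell cannot be told apart.

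**Figure D1:**
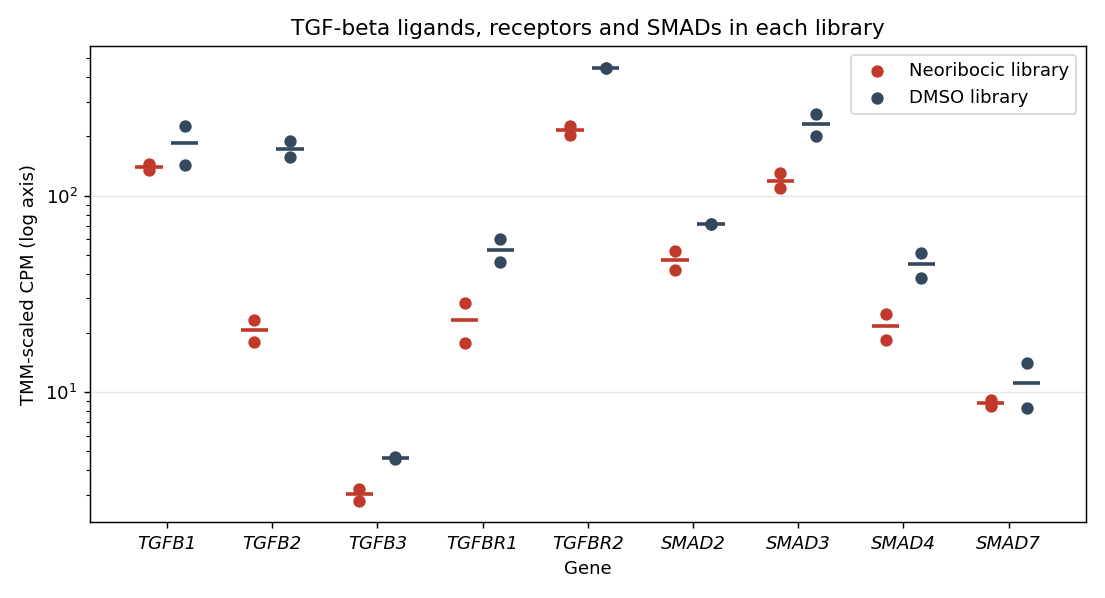
TMM-scaled CPM (log axis) of the 9 genes in each library, Neoribocic in red and DMSO in dark blue; points are libraries and bars their means (n = 2 per group). TGFB2 shows the widest gap, with Neoribocic libraries at 18.1 and 23.3 CPM and DMSO libraries at 157 and 190 CPM, while the points of TGFB1 and SMAD7 overlap.

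TGFB2 (ENSG00000092969, chromosome 1), a ligand that needs the co-receptor TGFBR3 to bind TGFBR2 well, had 767 and 1105 counts in the Neoribocic libraries, against 5566 and 6231 counts in the DMSO libraries. On the TMM scale these were 18.1 and 23.3 CPM with Neoribocic and 157 and 190 CPM with DMSO. Both treated libraries lay far below both controls. The level was 8.39-fold lower, a log2 fold change of -3.07 ± 0.23 (SE; edgeR adjusted p = 4.80e-04). The call held in all 17 alternatives fitted, where the log2 fold change ran from -3.26 to -2.40, and the correction for length and GC content gave the smallest change. In GENCODE 29, 26.6% of the gene's exon bases are shared with TGFB2-OT1 on the same strand, and reads of that stretch cannot be assigned to 1 gene.

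TGFB1 (ENSG00000105329, chromosome 19), the ligand most studied in tumors, had 134 and 144 CPM in the Neoribocic libraries, against 143 and 226 CPM in the DMSO libraries. The groups overlapped, and the DMSO libraries were far apart. The log2 fold change was -0.40, with a 95% interval of -0.96 to 0.15 (edgeR adjusted p = 0.208). Without DMSO replicate 2 it was -0.02. With the correction it was -0.97 and passed (edgeR adjusted p = 0.0232, a call made in no other of the 17 alternatives, over which the adjusted p reached 0.942). Of its exon bases, 6.64% overlap HNRNPUL1 on the opposite strand.

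TGFB3 (ENSG00000119699, chromosome 14), the third ligand, was low, with 119 and 153 counts in the Neoribocic libraries and 165 and 149 counts in the DMSO libraries. Its levels were 2.80 and 3.22 CPM with Neoribocic, against 4.65 and 4.54 CPM with DMSO. The libraries of the groups did not overlap, yet the test did not pass. The log2 fold change was -0.61, with a 95% interval of -1.26 to 0.04 (edgeR adjusted p = 0.119). The correction gave -0.89 and an edgeR adjusted p of 0.0380, with 0.398 the highest over the alternatives.

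The make-up of the ligand messages differed between the groups. Scaled by transcript length, TGFB2 held 6.82% and 8.09% of the ligand messages in the Neoribocic libraries, against 37.2% and 31.5% in the DMSO libraries. TGFB1 held 91.1% and 89.7% with Neoribocic and 60.6% and 67.1% with DMSO. TGFB3 stayed a small part, from 1.48% to 2.21% in all libraries. The share of TGFB2 averaged 7.46% ± 0.89 with Neoribocic and 34.3% ± 4.06 with DMSO (SD, n = 2 each). This difference of -26.9 percentage points does not depend on how libraries are scaled. The share was not corrected for the trends with transcript length and GC content. With that correction the log2 fold changes of TGFB2 and TGFB1 lay closer together, at -2.40 and -0.97, against -3.07 and -0.40 as counted. For every count of TGFB1 there were 0.134 and 0.162 counts of TGFB2 in the Neoribocic libraries, against 1.10 and 0.842 in the DMSO libraries. An exact test over 2 against 2 libraries cannot reach the threshold, so no p is given for the share.

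**Figure D2:**
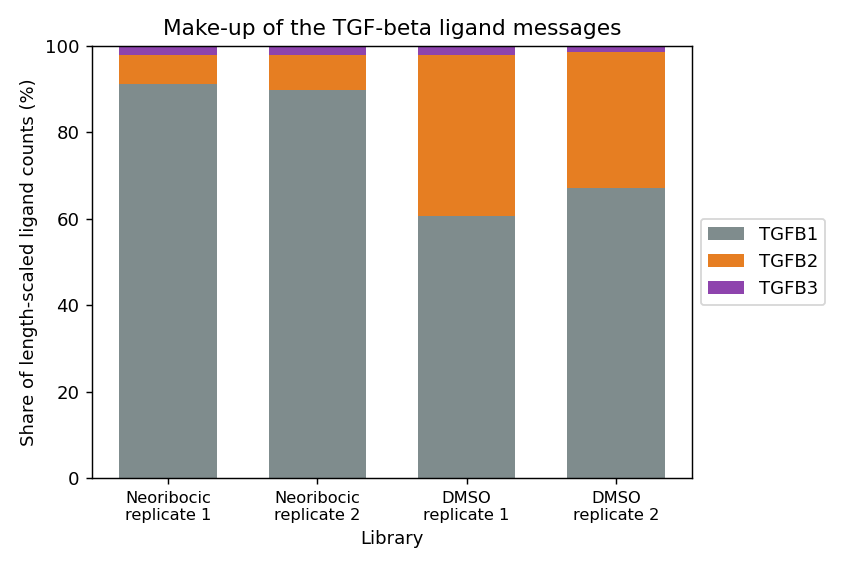
Share of the length-scaled counts of TGFB1, TGFB2 and TGFB3 (percent, y axis) held by each ligand gene in each library (x axis). The TGFB2 segment is 6.82% and 8.09% in the Neoribocic libraries and 37.2% and 31.5% in the DMSO libraries.

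Among the receptors both genes fell. TGFBR2 (ENSG00000163513, chromosome 3), the ligand-binding type II receptor, had 204 and 225 CPM in the Neoribocic libraries, against 448 and 443 CPM in the DMSO libraries. Replicates were close and the groups lay well apart. The log2 fold change was -1.05 ± 0.19 (SE; edgeR adjusted p = 0.00357), and the call held in all 17 alternatives, with -0.62 after the correction.

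TGFBR1 (ENSG00000106799, chromosome 9), the kinase that phosphorylates SMAD2 and SMAD3, had 17.8 and 28.5 CPM in the Neoribocic libraries, against 60.2 and 45.7 CPM in the DMSO libraries. The groups did not overlap, but replicates differed within each. The log2 fold change was -1.19 ± 0.28 (SE; edgeR adjusted p = 0.0122). The call was lost without DMSO replicate 1 (-0.98, edgeR adjusted p = 0.0661) and without Neoribocic replicate 1 (-0.89, 0.0807). It was also lost after the correction, at -0.38 (edgeR adjusted p = 0.135), the highest over the alternatives. The count of TGFBR1 per count of TGFBR2 was 0.0873 and 0.126 in the Neoribocic libraries and 0.134 and 0.103 in the DMSO libraries, which overlap.

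Of the receptor-activated SMADs, SMAD3 (ENSG00000166949, chromosome 15), which binds DNA directly, had 109 and 130 CPM in the Neoribocic libraries, against 200 and 260 CPM in the DMSO libraries. The groups did not overlap. The log2 fold change was -0.95 ± 0.21 (SE; edgeR adjusted p = 0.00915), and it was -0.62 after the correction, where the call held (edgeR adjusted p = 0.0287). The call was lost without DMSO replicate 2 (-0.74, edgeR adjusted p = 0.0541) or Neoribocic replicate 1 (-0.82, 0.0816).

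SMAD2 (ENSG00000175387, chromosome 18), the close relative of SMAD3, had 41.6 and 52.0 CPM in the Neoribocic libraries, against 71.7 and 71.3 CPM in the DMSO libraries. The groups did not overlap, and the log2 fold change of -0.61 ± 0.21 (SE) passed narrowly, with an edgeR adjusted p of 0.0471. It was lost when any library was left out (edgeR adjusted p of 0.0585 to 0.253), with upper-quartile factors (0.102), with library totals (0.230) and without the robust option (0.0504). The correction turned its sign to 0.50 (edgeR adjusted p = 0.0562). That value rests on the transcript taken, since the principal transcripts of SMAD2 in GENCODE 29 reach from the 12075 bases used to 34526 bases, and with the longest it was 0.91 (edgeR adjusted p = 0.00871). The count of SMAD2 per count of SMAD3 was 0.383 and 0.401 in the Neoribocic libraries, against 0.358 and 0.274 in the DMSO libraries.

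SMAD4 (ENSG00000141646, chromosome 18), the shared partner of all receptor-activated SMADs, had 18.4 and 25.1 CPM in the Neoribocic libraries, against 38.3 and 51.0 CPM in the DMSO libraries. Its log2 fold change was -1.04 ± 0.26 (SE; edgeR adjusted p = 0.0142), with no overlap between the groups. The call was lost without DMSO replicate 2 (-0.80, edgeR adjusted p = 0.0793) and without Neoribocic replicate 1 (-0.82, 0.103). After the correction it stood at -0.11 (edgeR adjusted p = 0.745), the highest p over the alternatives. Relative to SMAD3 the groups overlapped, at 0.170 and 0.193 counts per count of SMAD3 with Neoribocic and 0.191 and 0.196 with DMSO.

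SMAD7 (ENSG00000101665, chromosome 18), the inhibitory SMAD, had 8.52 and 9.06 CPM in the Neoribocic libraries, against 8.32 and 14.0 CPM in the DMSO libraries. The Neoribocic libraries lay between the controls. The log2 fold change was -0.34, with a 95% interval of -1.02 to 0.34 (edgeR adjusted p = 0.379), and it was called in none of the 17 alternatives (lowest edgeR adjusted p = 0.101). The correction gave -0.57 (edgeR adjusted p = 0.139). Without DMSO replicate 2 it was 0.09. Relative to SMAD3 its count was higher, at 0.0784 and 0.0698 with Neoribocic, against 0.0415 and 0.0538 with DMSO, with no overlap between the groups. That ratio was not corrected for the trends with transcript length and GC content. With the correction the log2 fold changes of SMAD7 and SMAD3 lay close together, at -0.57 and -0.62.

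**Figure D3:**
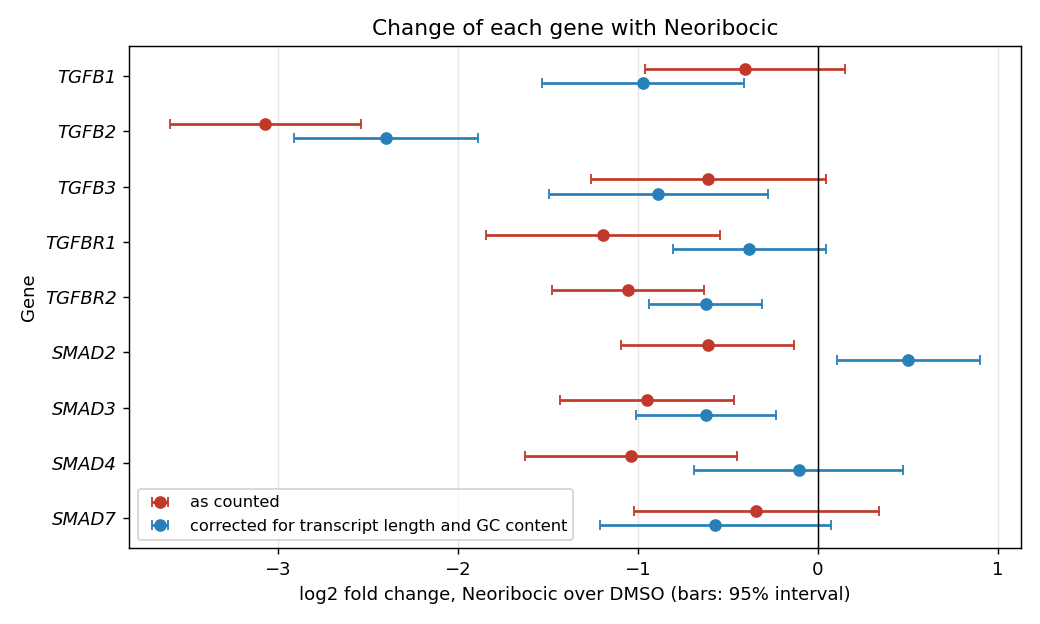
Log2 fold change of Neoribocic over DMSO (x axis) for the 9 genes as counted (red) and corrected for transcript length and GC content (blue); bars are 95% intervals. TGFB2, TGFBR2 and SMAD3 stay below 0 in both, whereas SMAD2 stands at -0.61 as counted and 0.50 corrected.

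With the correction 5 of the 9 genes were called lower, TGFB1, TGFB2, TGFB3, TGFBR2 and SMAD3, beside 19.1% lower among all genes in that fit, and none was called higher, beside 16.3%. Of the 6 called as counted, 3 kept the call: TGFB2, TGFBR2 and SMAD3. With 1 library left out, 1 group held a single library, and fewer genes were called, over all genes as well as among the 9. The median log2 fold change of the 9 then ran from -1.08 to -0.74. Without Neoribocic replicate 1 the calls were TGFB2 and TGFBR2, and without DMSO replicate 2 they were TGFB2, TGFBR1 and TGFBR2. The longest transcripts of the 9 are those of SMAD2 (12075 bases), SMAD4 (8495) and TGFBR1 (6516), taking for each gene the transcript used in the correction, and these are also among the poorest in GC (37.9%, 39.5% and 39.0%). Those are the 3 whose calls the correction removed. The correction depends on length and GC content alone, so this match carries no separate information. TGFB2, at 4969 bases and 38.6%, was as poor in GC and kept its call, and TGFB1, at 2769 bases and 63.5%, was the richest in GC.

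**Figure D4:**
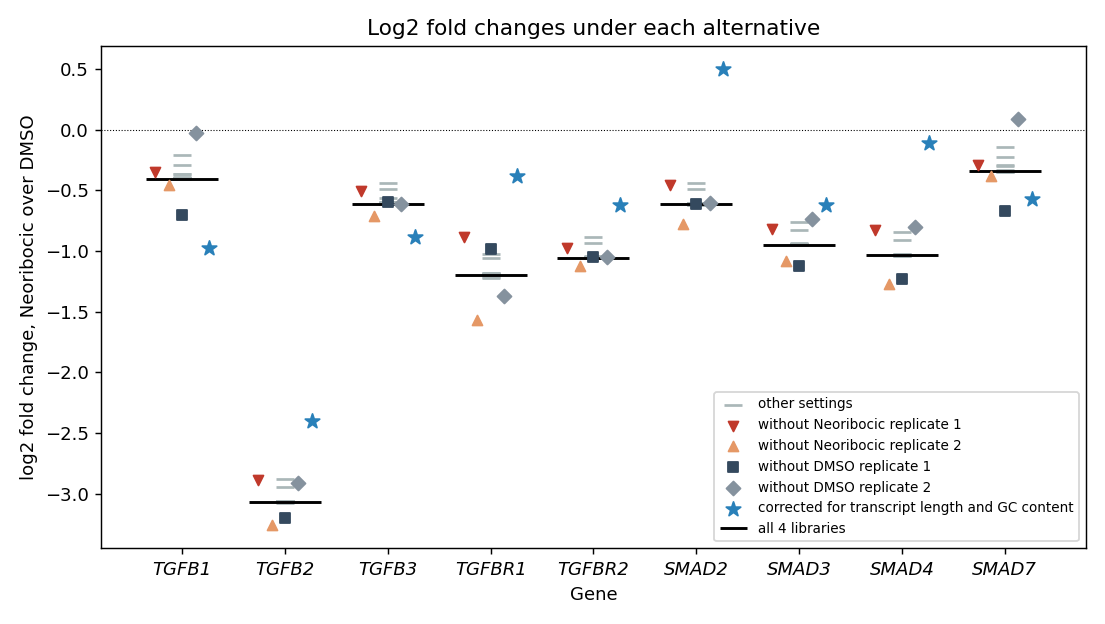
Log2 fold change of each gene (y axis) with all 4 libraries (black bar), with 1 library left out (triangles, square and diamond), corrected for transcript length and GC content (star) and under the other settings (grey dashes). TGFB2 keeps between -3.26 and -2.40 in all of them, while the stars of TGFBR1, SMAD2 and SMAD4 lie well above their black bars.

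Levels between genes were compared as CPM per kilobase of the GENCODE transcript. In the Neoribocic libraries TGFB1 (48.5 and 52.0 CPM per kilobase) and TGFBR2 (44.1 and 48.7) stood highest and overlapped, followed by SMAD3 (17.4 and 20.8). TGFB2 (3.63 and 4.68), SMAD2 (3.45 and 4.30), TGFBR1 (2.73 and 4.37) and SMAD4 (2.17 and 2.95) came next, each overlapping its neighbour. SMAD7 (1.92 and 2.05) and TGFB3 (1.11 and 1.28) were lowest. In the DMSO libraries TGFBR2 (96.9 and 96.0 CPM per kilobase) led TGFB1 (51.5 and 81.5). TGFB2 (31.6 and 38.2) stood beside SMAD3 (32.1 and 41.6), and those overlapped. They were followed by TGFBR1 (9.23 and 7.01), SMAD2 (5.94 and 5.91), SMAD4 (4.5 and 6.0), SMAD7 (1.88 and 3.16) and TGFB3 (1.84 and 1.80), where SMAD2 and SMAD4 overlapped. TGFB2 thus stood beside SMAD2 with Neoribocic and beside SMAD3 with DMSO. The place of SMAD2 in both orders rests on the transcript of 12075 bases used for it. Its longest principal transcript has 34526 bases, and scaling by that length would lower its level in every library.

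Of 10800 genes with a symbol and a mean of at least 5 CPM, those whose pattern lay nearest to a member were named by Euclidean distance of centred log2 CPM over the 4 libraries. Nearest to TGFB2 were KAT6B, a histone acetyltransferase gene, at a distance of 0.203, COBLL1 at 0.231, and NEXN, an actin-binding protein gene, at 0.283. KAT6B had 9.77 and 11.6 CPM with Neoribocic, against 90.7 and 91.9 CPM with DMSO. For 7 other members the nearest were ZMIZ2 (TGFB1, distance 0.0340), DNAJC21 (TGFB3, 0.0327), IFIT1 (TGFBR1, 0.0645), EXOC4 (TGFBR2, 0.0108), CALU (SMAD2, 0.0261), EIF4EBP2 (SMAD3, 0.0457) and LAPTM5 (SMAD7, 0.0541). The nearest gene to TGFB2 was farther from it than the nearest gene of any of these 7, and with only 4 libraries the order of neighbours is a description.

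The lists of other pathway genes held 111 distinct genes, of which 95 were tested: 18 rose, 32 fell and 45 did not pass. Among all genes tested 19.1% rose and 21.3% fell, which are the shares to set beside the counts of each list below. The lists were chosen with earlier results of these data known.

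Among genes of latency, storage and activation, 2 of 13 tested rose and 5 fell, with a median log2 fold change of -0.50 (corrected -0.31). FBN1 (fibrillin 1, a scaffold for latent TGF-beta) had 43.2 and 43 CPM with Neoribocic, against 117 and 105 CPM with DMSO. THBS1 (thrombospondin 1, an activator of the latent form) had 190 and 191 CPM, against 410 and 491 CPM. Both fell, by 1.36 and 1.24 on the log2 scale (edgeR adjusted p = 0.00170 and 0.00226), but stood at -0.45 and -0.46 after the correction, short of the threshold (edgeR adjusted p = 0.0616 and 0.0691). ITGB8, the integrin subunit that frees TGF-beta, fell by 2.02 from a low level, with at most 0.55 CPM with Neoribocic and 1.95 CPM with DMSO. EMILIN1, an inhibitor of TGF-beta maturation, rose by 1.59 from a low level, with 90 and 64 counts with Neoribocic, against 18 and 21 with DMSO. FURIN, the protease that cleaves the precursor, rose by 0.60. The calls of ITGB8 and EMILIN1 were lost without DMSO replicate 1 (edgeR adjusted p = 0.0861 and 0.0751) or Neoribocic replicate 1 (0.131 and 0.216), and that of FURIN when any library was left out (0.0692 to 0.176). All 3 were lost after the correction. Over the list the falls numbered 2 and the rises 0 without Neoribocic replicate 1, and 3 and 0 without DMSO replicate 1.

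Of the other superfamily ligands 3 of 11 rose and 3 fell, with a median of 0.13 (corrected -0.04). INHBB, the activin B subunit, fell, having 4.59 and 4.46 CPM with Neoribocic, against 36.7 and 42.0 CPM with DMSO (log2 fold change -3.12 ± 0.24 SE, edgeR adjusted p = 4.94e-04). As counted the fall of INHBB was of much the same size as that of TGFB2 (-3.07). With the correction they stood apart, at -3.35 for INHBB and -2.40 for TGFB2. BMP4 had 22.9 and 22.2 CPM with Neoribocic, against 80.0 and 240 CPM with DMSO, and fell by 2.83, a call lost without Neoribocic replicate 1 or 2 (edgeR adjusted p = 0.144 and 0.0954). GDF11 fell by 1.03 (corrected -0.32, where the call was lost). GDF15, a stress-induced family member, rose by 2.64 ± 0.26 (SE), with 59.1 and 51.1 CPM with Neoribocic, against 7.44 and 10.3 CPM with DMSO. GDF5 and BMP2 rose by 2.55 and 1.16, and neither call held without Neoribocic replicate 1. GDF5 was low, with 56 and 37 counts with Neoribocic, against 6 counts in each DMSO library. Among ligand antagonists 1 of 7 rose, FSTL3 by 0.92. The 3 that fell were BMPER, by 2.90, and the BMP binders NOG and TWSG1, by 0.80 and 0.79. BMPER was low, with 3 and 19 counts with Neoribocic, against 71 and 53 counts with DMSO. Each of these 4 calls was lost without Neoribocic replicate 1, and the 3 falls also without DMSO replicate 1. FSTL3 and NOG lost theirs without DMSO replicate 2 too, and NOG also without Neoribocic replicate 2, so that its call was lost when any library was left out. FSTL3 and TWSG1 stood at 0.28 and -0.29 after the correction, with no call (edgeR adjusted p = 0.221 and 0.141), while NOG stood at -1.42 with its call kept. With library totals NOG and TWSG1 lost their calls (edgeR adjusted p = 0.108 and 0.110).

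Among other superfamily receptors 4 of 13 rose and 3 fell, with a median of -0.02 (0.28 corrected). ACVR1B, the type I activin receptor that shares SMAD2 and SMAD3 with TGFBR1, had 51.3 and 50.5 CPM with Neoribocic, against 23.5 and 27.4 CPM with DMSO. It rose by 1.0 ± 0.21 on the log2 scale (SE; edgeR adjusted p = 0.00769) and kept the call in all alternatives. TGFBR1 was among the genes called lower as counted, but lost that call in some alternatives, the correction among them (-0.38, edgeR adjusted p = 0.135). ACVR1, a type I receptor of the BMP branch, rose by 0.93, a call lost without DMSO replicate 2 (edgeR adjusted p = 0.0533). CD109, a TGF-beta co-receptor that dampens signalling, had 13 and 43 counts with Neoribocic and 0 in both DMSO libraries, at least 14.2-fold higher against a floor of 3 counts over the DMSO group. BMPR2 fell by 1.43 (corrected -0.34), and TGFBR3, the co-receptor that presents TGFB2, by 0.75, with 36.1 and 32.8 CPM with Neoribocic, against 63.1 and 52.4 CPM with DMSO. The corrected fit called neither (edgeR adjusted p = 0.128 and 0.143), and TGFBR3 also lost its call with library totals (0.120) and without DMSO replicate 1 or either Neoribocic library (0.0863 to 0.113). ACVR1C, a low type I receptor, had 0.09 and 0.25 CPM with Neoribocic, against 1.33 and 0.43 CPM with DMSO. It fell by 2.30 on the log2 scale, a call made in 9 of the 15 alternatives that could be fitted for it. The call was lost with DESeq2, with limma-voom and after the correction. It was also lost without DMSO replicate 1 or either Neoribocic library. The falls of this list numbered 1 when DMSO replicate 1 or either Neoribocic library was left out, and 0 after the correction. The rises numbered 2 without DMSO replicate 2 or Neoribocic replicate 2.

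Of the other SMADs 2 of 4 fell and 0 rose, with a median of -0.80 (corrected -0.46). After the correction 2 were called lower and 1 higher. SMAD6, the inhibitory SMAD of the BMP branch, had 0.377 and 0.442 CPM with Neoribocic, against 2.23 and 1.92 CPM with DMSO, and fell by 2.33 ± 0.42 (SE; edgeR adjusted p = 0.00394). SMAD1, which carries BMP signals, fell by 1.06, a call lost without Neoribocic replicate 1 (edgeR adjusted p = 0.0625). Of the SMAD regulators and cofactors 1 of 19 rose and 8 fell, with a median of -0.36 (corrected -0.11). SMURF1, a ubiquitin ligase for SMADs and receptors, was the one that rose, with 78.3 and 88.9 CPM with Neoribocic, against 40.9 and 41.3 CPM with DMSO, by 1.02 ± 0.20 (SE). Its relative NEDD4L, which targets activated SMAD2 and SMAD3, fell by 1.42 ± 0.19 (SE), with 201 and 212 CPM, against 522 and 581 CPM. Both held in all alternatives fitted. USP15, which removes ubiquitin from this receptor complex, and TRIM33, a SMAD4 ligase, fell by 1.54 and 1.26, with -0.32 each after the correction and no call there. The falls numbered 5 without Neoribocic replicate 1 and 4 after the correction.

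Of the TGF-beta response genes 6 of 25 rose and 8 fell, beside 19.1% and 21.3% of all genes tested. Their median log2 fold change was -0.14 (corrected -0.44). The gene of the feedback inhibitor PMEPA1, a direct SMAD target, had 1.37 and 1.10 CPM with Neoribocic, against 4.31 and 5.76 CPM with DMSO, and fell by 2.03 ± 0.33 (SE; edgeR adjusted p = 0.00276). CCN2, the matrix protein also called CTGF, had 241 and 226 CPM, against 566 and 547 CPM, and fell by 1.25 ± 0.19 (SE; edgeR adjusted p = 0.00184). NEDD9, a scaffold of migrating cells, fell by 2.94 ± 0.38 (SE). These 3 calls held in all alternatives. VEGFA, JUNB and ACTA2 rose by 1.42, 1.47 and 1.53, VEGFA in all alternatives, although at 0.81 after the correction. JUNB and ACTA2 lost their calls without Neoribocic replicate 1 (edgeR adjusted p = 0.0525 and 0.0652), where the list had 1 rise in place of 6, and it had 3 without DMSO replicate 1. JUNB stood at 0.72 after the correction, with no call (edgeR adjusted p = 0.0632). Reads of ACTA2 can also be divided among near-identical actin genes. In the BMP response list 1 of 8 rose, ID3 by 1.08, and 2 fell, SMAD6, given above, and ID1, by 1.15. ID3 and ID1 lost their calls without DMSO replicate 2 (edgeR adjusted p = 0.0656 and 0.221) or Neoribocic replicate 2 (0.0637 and 0.167), and without Neoribocic replicate 1 the list had 4 falls. After the correction ID3 stood at 0.44 with no call (edgeR adjusted p = 0.226) and ID1 at -1.91 with its call kept, a call it lost with upper-quartile factors (edgeR adjusted p = 0.0558).

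**Figure D5:**
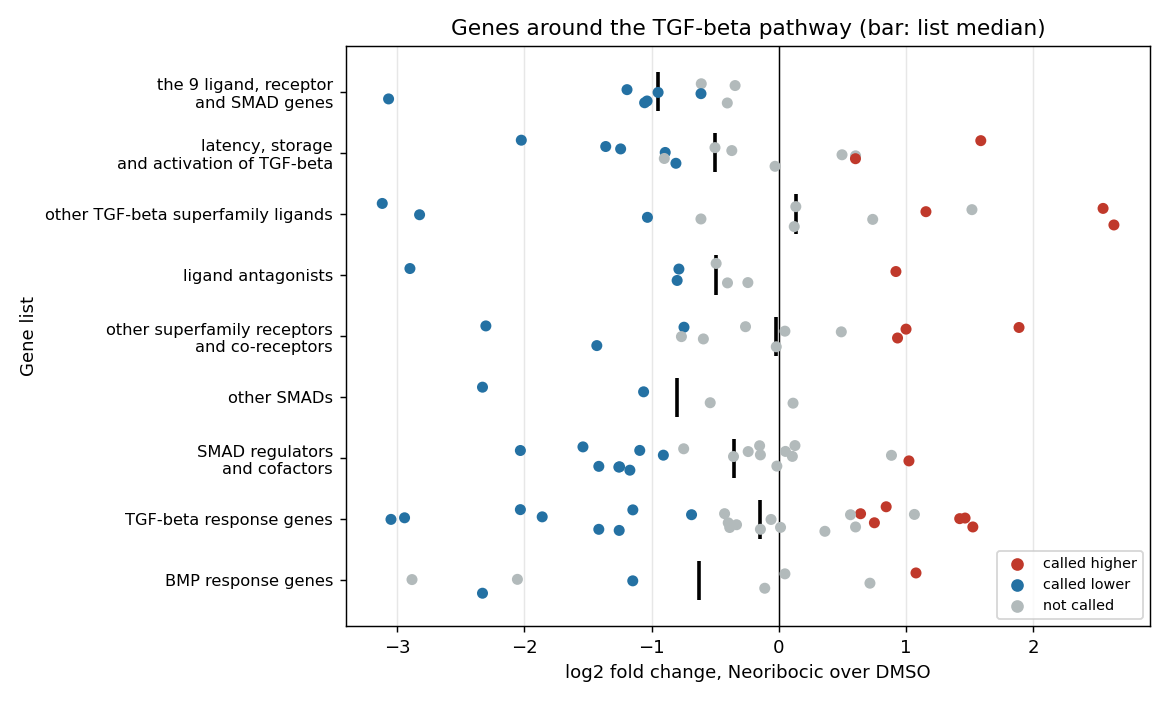
Log2 fold change of Neoribocic over DMSO (x axis) for the tested genes of each list (y axis), red where called higher, blue where called lower and grey otherwise, with the list median as a black bar. The 9 ligand, receptor and SMAD genes lie to the left of 0, with 6 called lower, while the response genes lie on both sides, with 6 higher and 8 lower; CD109 is not drawn because it had no counts in DMSO.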

How the data were processed

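The table holds raw counts per Ensembl gene for 4 libraries, deposited by the authors as whole numbers with no normalization. Per the labels' protocols, libraries were made from 1.4 µg of total RNA with an mRNA kit. The aligner, the counter and its handling of strand were not given in the sources used here. As builds, the submitters' processing notes list GRCm38 and mm10, which are mouse, although the IDs are human, so the only coordinates printed are those of RefSeq promoter windows on GRCh38.p14. Of 20263 IDs, 20148 had a symbol.

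Counts were filtered with filterByExpr, scaled by TMM and tested with edgeR 4.0.16 in R 4.3.3 (robust quasi-likelihood fit, group as the only term). P-values were adjusted by Benjamini-Hochberg over 13879 genes at a threshold of 0.05. The SE is the absolute log2 fold change over the root of the F statistic, and intervals use the fit's degrees of freedom. Transcript length and GC content came from 1 principal GENCODE 29 transcript per gene, of lower-median length. The correction removed a smooth surface of log2 CPM on both (mgcv 1.9.3) as an offset. Alternatives were other scalings and filters, DESeq2 1.42.0, limma-voom 3.58.1, no robust option, each library left out, a block for replicate number, thinned or divided counts, no mitochondrial genes and a threshold of 0.01. The fit was tested on simulated data with planted changes. The correction was tested there on a planted trend with transcript length only, so its GC part was not tested.

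Members and lists were chosen with earlier results of these data known. Named genes were the 9 members, up to 3 called genes per list and direction with the smallest p, and the nearest genes by pattern, of which that for SMAD4 is not reported here.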

Additional observations from a re-analysis of the deposited data

How the results depend on the processing

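Upper-quartile factors and library totals moved the median log2 fold change of all genes by 0.12 and 0.17 and the share of calls that were higher to 56.8% and 59.6%, against 47.2% with TMM, and 5 of the 9 genes were called under each. All 9 genes kept their direction under every scaling and filter tried. The sign turned for SMAD2 with the correction (0.50, or 0.91 with the longest principal transcript, an alternative chosen after seeing the data), and without DMSO replicate 2 for SMAD7 and LAPTM5, whose values ran from -0.67 to 0.0907 and from -0.71 to 0.0604 with 1 library left out. At a threshold of 0.01, 2883 genes and 3 of the 9 were called. With 1 library left out, the calls ran from 2468 to 4536 genes and from 2 to 5 of the 9, the lowest without Neoribocic replicate 1 in both. The share of TGFB2 among ligand messages differed by -35.8 percentage points from counts with no length scaling, and by -29.7 to -24.0 with 1 library left out. The numbers 1 and 2 are not stated to pair libraries, and deviations of same-numbered libraries correlated at -0.05. With the replicate number as a block 5594 genes and 5 of the 9 were called, SMAD2 being at an edgeR adjusted p of 0.0695. Counts thinned to the smallest library total, or halved, left 6 of the 9 called.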
